A study of Mus musculus with 32 samples.

Results

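The solute carriers described here are the protein-coding mouse genes whose symbols begin with Slc and a digit or with Slco, outside 8 carriers of iron, heme and hexoses that the selection leaves out by name (Slc25a37, Slc46a1, Slc39a14, Slc48a1, Slc11a2, Slc40a1, Slc2a2 and Slc2a5). Of the 10055 genes in any of the 4 deposited organ tables, 160 were such members, out of 377 annotated in GENCODE M21. Of the 6375 genes listed for liver 86 were members, of the 1567 for duodenum 25, of the 2413 for jejunum 33 and of the 5187 for ileum 80. Higher in Khk KO were 55 of the liver members, 17 of the duodenal, 20 of the jejunal and 41 of the ileal ones. Over the protein-coding genes listed, the higher share was 50.4%, 39.5%, 49.3% and 48.9% in the same order. The libraries came from male mice, Khk KO or WT, with 4 libraries per genotype in each of liver, ileum, jejunum and duodenum. Khk encodes ketohexokinase, the enzyme that phosphorylates fructose. The study asked how fructose and this enzyme act on iron homeostasis. Strain, age, diet, any fructose given and the way Khk was deleted were not given in the sources used here, nor whether the organs came from the same animals, so p-values measure the spread between these libraries.

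The tables are selected: a gene is listed for an organ if its unadjusted p in the authors' own test was under 0.05. Every member listed for an organ had therefore already differed there at that level, and carriers outside a table were not analysed here. Below, "rose" and "fell" are used only of members with an adjusted p under 0.05 in edgeR's quasi-likelihood test of the deposited read counts, refitted per organ. For that adjustment the total of genes in the authors' own adjustment was used.

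Solute carriers are membrane proteins that move amino acids, ions, vitamins, metabolites and drugs along or against their gradients. In the liver they take up bile acids, organic ions and amino acids on the blood-facing side, and the mitochondrial SLC25 carriers pass acyl-carnitines, citrate, nucleotides and cofactors through the inner mitochondrial membrane. In the small intestine, carriers on the brush border absorb nutrients and those on the basolateral side hand them to the blood, and many work only as pairs of subunits.

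Promoter windows are shown for 4 members: the subunits of the basolateral bile acid exporter (Slc51a and Slc51b), which were lower together in 3 segments of the intestine, then Slc38a2, which rose in liver and ileum, and Slc25a20, which fell in liver and was lower in the duodenum and jejunum tables. Each is the part of the 250 bases before the RefSeq start (GRCm38.p6) that also lies before the start in the deposited tables, read 5′ to 3′ on the gene's strand, with matches to the 5 motifs named below in capitals.
Slc51a, chr16:32487880-32488129, minus strand: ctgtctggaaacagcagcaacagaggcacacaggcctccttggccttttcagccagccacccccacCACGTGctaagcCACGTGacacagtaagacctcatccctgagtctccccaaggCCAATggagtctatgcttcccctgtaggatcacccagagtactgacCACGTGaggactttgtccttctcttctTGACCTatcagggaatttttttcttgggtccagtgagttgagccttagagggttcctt
Slc51b, chr9:65422956-65423023, minus strand: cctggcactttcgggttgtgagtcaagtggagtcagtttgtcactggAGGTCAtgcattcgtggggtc
Slc38a2, chr15:96699731-96699978, minus strand: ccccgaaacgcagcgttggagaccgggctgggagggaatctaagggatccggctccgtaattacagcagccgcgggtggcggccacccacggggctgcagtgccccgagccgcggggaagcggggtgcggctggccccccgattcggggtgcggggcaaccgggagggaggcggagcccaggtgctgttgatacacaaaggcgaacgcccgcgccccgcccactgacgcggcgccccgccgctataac
Slc25a20, chr9:108661886-108662087, plus strand: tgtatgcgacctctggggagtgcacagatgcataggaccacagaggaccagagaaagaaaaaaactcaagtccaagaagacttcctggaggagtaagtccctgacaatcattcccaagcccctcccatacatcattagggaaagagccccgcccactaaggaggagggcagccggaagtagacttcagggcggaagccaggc
RefSeq windows of 250 bases before the start were found for 121 of the 160 members (149 windows) and 32851 windows in all. The motifs searched on both strands were the nuclear receptor half-site AGGTCA, the E-box CACGTG, the cyclic AMP response element TGACGTCA, the amino acid response element core TGATGNAAN and the CCAAT box. The E-box was in 11.4% of member windows and 6.02% of all windows. The half-site was in 14.1% of member windows and 14% of all, and CCAAT in 32.9% and 33.8%. TGACGTCA was found in 1.34% of member windows and 1.55% of all, and TGATGNAAN in 3.36% and 3.44%. The Slc51a window held 3 E-boxes, 1 half-site and 1 CCAAT, and 0.0609% of all windows (20 windows) held as many as 3 E-boxes. Only 68 bases are printed for Slc51b, because its start in the deposited tables lies further upstream, and they hold 1 half-site. The printed bases of Slc38a2 (248) and Slc25a20 (202) hold none of the 5 motifs. A match describes the letters and not a bound site.

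Listed genes drew between 7505439 and 14331517 reads in a liver library, and the ileal libraries held between 6531593 and 9149003. Jejunal libraries held between 3053896 and 4325568 such reads and duodenal ones between 1722220 and 3549978. Between 1.26% and 3.03% of them fell on members. Khk in Khk KO was at 11.1% of its WT mean in the liver libraries, and at 6.65% in ileal, 9.25% in jejunal and 4.59% in duodenal ones, with no overlap between the genotypes in any organ. Duodenum libraries carry names from another numbering series than the rest, so organ and library series cannot be told apart there. Values per gene are the authors' normalised counts, which are read counts divided by 1 size factor per library.

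Liver showed the most members past the threshold. The edgeR fit took 76 of its 86 members, of which 21 rose and 12 fell in Khk KO, while the same fit called 49.3% of the protein-coding genes it tested (22.5% higher and 26.8% lower). In the authors' deposited table, 34 members were called higher and 15 lower at an adjusted p under 0.05, or 57% of the members, against 70.9% of the protein-coding genes it lists (34.9% higher and 36.1% lower). The genotypes did not overlap for 53 members, where 65.8% of the protein-coding genes of that table did not. The median log2 fold change of the fitted members was 0.46, against -0.27 over the protein-coding genes that the fit took. Over all listed genes the deposited medians were 0.47 for members and 0.30 for protein-coding genes. Genes with small changes are mostly not listed, so a median can change sign with few genes. The 33 calls became 0 without Khk KO replicate 1, 2 or 4, 1 without WT replicate 2, 3 without Khk KO replicate 3 or WT replicate 4, and 63 without WT replicate 1.

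**Figure D1:**
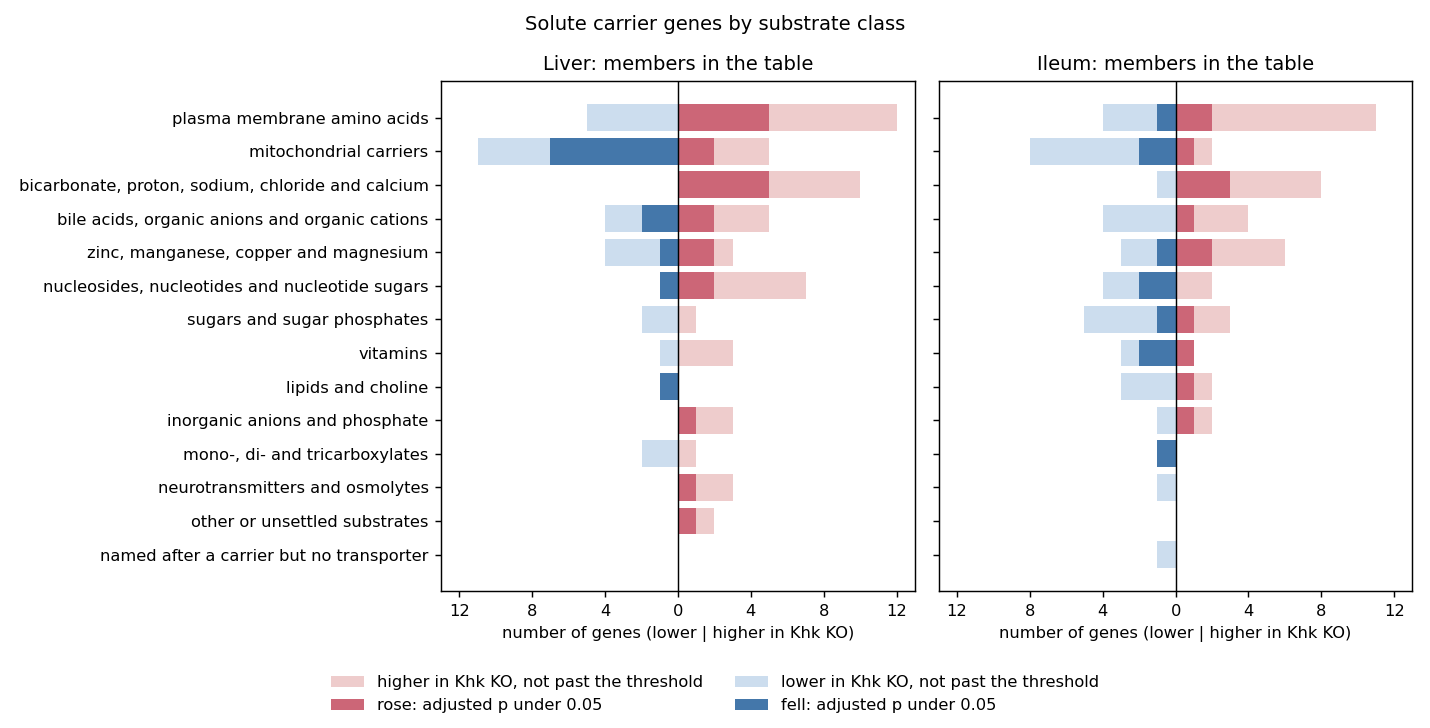
Number of solute carrier genes in the liver and ileum tables by substrate class. Bars to the right count members higher in Khk KO and bars to the left those lower; full colour marks the members past the threshold in the edgeR fit (21 rose and 12 fell in liver, 13 rose and 10 fell in ileum), and pale bars hold those that did not pass or were too low to fit.

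Direction in the liver followed gene length. Members higher in Khk KO had a median length of 6095 bases in the deposited table and those lower one of 2857 bases. Across the 73 members that averaged 50 normalised counts or more, log2 fold change and log2 length had a Pearson r of 0.69, and across 4915 protein-coding genes r was 0.71; genes are not independent replicates, and all points share the same 8 libraries. A further fit therefore took the length trend out of each library as an offset, which also removes any genotype effect that goes with length. In that fit 6 liver members rose and 3 fell, the median of the members was 0.071, and 11.6% of protein-coding genes were called (4.27% higher and 7.34% lower). Slc25a20, Slc25a51, Slc20a1 and Slc16a12 were past the threshold in both fits. With GC content taken out in the same way, 17 members rose and 4 fell, and 40.9% of protein-coding genes were called (17.1% higher and 23.7% lower). Slc25a20, Slc25a51 and Slc20a1 were among those members, and Slc16a12 was not.

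**Figure D2:**
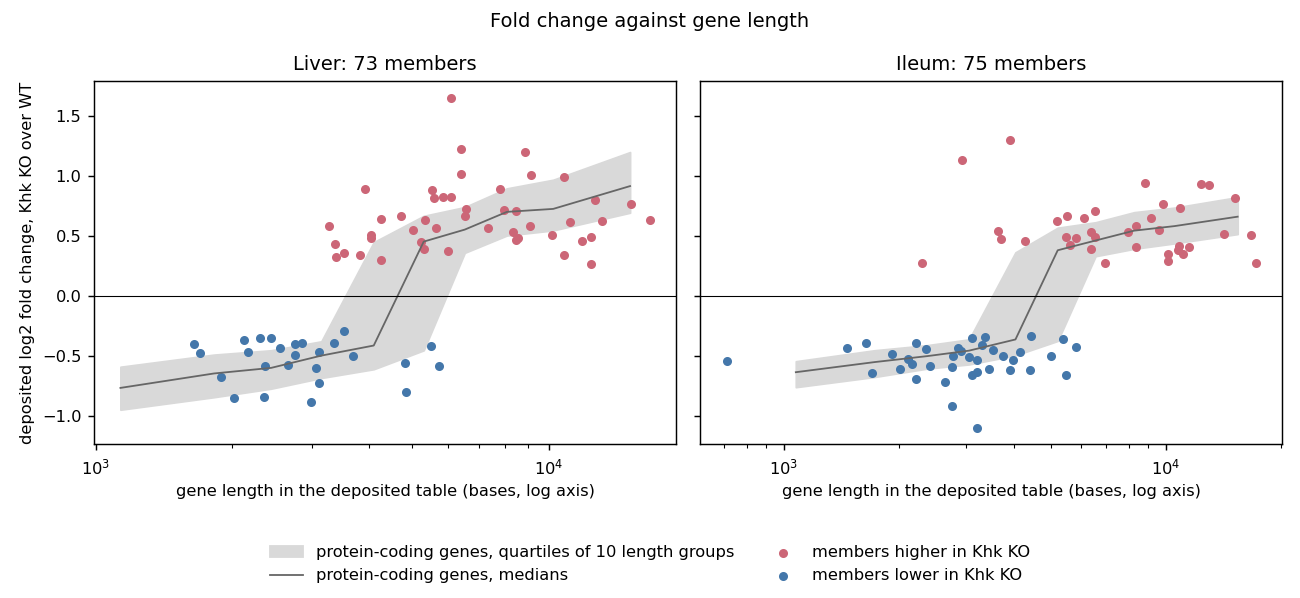
Deposited log2 fold change of members (points) against gene length on a log axis, in liver (73 members) and ileum (75 members), over the median (line) and quartiles (band) of protein-coding genes in 10 length groups. Members below zero sit mostly to the left and members above zero to the right, along the band of all protein-coding genes.

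Markers of cell types moved with genotype beside these counts, and in bulk tissue fewer cells of a type and less RNA per cell cannot be told apart. Of 8 hepatocyte markers 6 were in the liver table, 5 of them lower and called in the authors' deposited table. Their summed normalised counts were 359829 to 419857 in WT and 289642 to 317387 in Khk KO. Of these, Apoa2, Ass1, Serpina1c and Ttr fell in the edgeR fit, and Fgb did not pass (-0.40, adjusted p = 0.054). With the length trend out, Apoa2, Serpina1c and Ttr were at 0.23, 0.23 and 0.18, while Ass1 and Fgb stayed negative at -0.32 and -0.21, none past the threshold. Erythroid markers (5 of 6 in the liver table, all 5 called lower in the authors' deposited table) summed to 4584 to 10959 in WT and 2967 to 3515 in Khk KO. Other lists also held genes called lower in the authors' deposited table. They were Clec4f (macrophage), Cidec (adipocyte), Cd79b (B cell), Des (smooth muscle), Tff3 (goblet), and Apoa4 and Fabp1 (enterocyte). Muc2 (goblet) was called higher at very low counts, and Myh11 (smooth muscle) was higher without a call. With the length trend out Clec4f, Cidec, Cd79b and Des were at -0.65, -0.49, -0.82 and -0.64, none past the threshold. The part of these cell types in the carrier values was not tested.

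Amino acid carriers of the plasma and lysosomal membrane leaned upward in liver. Of 17 listed, 12 were higher, and 5 rose and none fell: Slc7a2, Slc38a2, Slc38a6, Slc38a9 and Slc1a2. The median deposited log2 fold change of the 17 was 0.63, against 0.30 for all protein-coding genes. With the length trend out the median was 0.20, none of the 5 passed, and Slc38a9 and Slc1a2 turned negative.

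Slc7a2 (ENSMUSG00000031596, chromosome 8, 40862396 to 40922308), a carrier of arginine, lysine and ornithine, had normalised counts of 20279, 18432, 20757 and 28074 in the Khk KO libraries and 13044, 11408, 6923 and 12254 in WT. All 4 Khk KO values lay above all WT values, and WT replicate 3 was the lowest library, and Gm26584 overlaps 6.95% of its exon bases. The log2 fold change was 1.00 ± 0.20 (SE; adjusted p = 0.0178), and 0.31 with the length trend out (adjusted p = 0.427). Slc38a2 (ENSMUSG00000022462, chromosome 15, 96687392 to 96699730), a sodium-coupled carrier of small neutral amino acids, stood at 5631, 9115, 8317 and 9512 normalised counts in Khk KO and 3679.7, 1861, 4858 and 3773 in WT. Here too the genotypes were separate, with WT replicate 2 lowest. Its log2 fold change of 1.20 ± 0.26 (SE; adjusted p = 0.019) became 0.44 with the length trend out (adjusted p = 0.923).

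Lower in abundance were Slc38a6, a relative of Slc38a2, at 137 ± 9.94 in Khk KO and 74.3 ± 15.7 in WT (SD, n = 4), and Slc38a9, the lysosomal arginine sensor, at 225 ± 17.8 in Khk KO and 145 ± 10.7 in WT (SD, n = 4) normalised counts. Their log2 fold changes were 0.89 ± 0.21 and 0.63 ± 0.16 (SE; adjusted p = 0.0233 and 0.0264), and that of Slc38a9 reversed to -0.46 with the length trend out. Slc1a2, a glutamate transporter of the hepatocytes around the central vein, averaged 5622 ± 348 in Khk KO and 3644 ± 683 in WT (SD, n = 4), in normalised counts. It rose by 0.63 ± 0.14 (SE; adjusted p = 0.0208) on the log2 scale, which reversed to -0.29 in the length fit. Slc38a4, the hepatocyte member of the same family as Slc38a2, was the most abundant amino acid carrier per length at 520.1 ± 27.9 FPKM in Khk KO against 428 ± 39.6 FPKM in WT (SD, n = 4). The difference, a log2 fold change of 0.30 ± 0.11 (SE), did not pass (adjusted p = 0.08). Slc43a1, a carrier of large neutral amino acids, had 79.6, 76.3, 132 and 83.6 normalised counts in Khk KO and 147, 137, 133 and 137 in WT. It missed the threshold at -0.58 ± 0.22 (SE; adjusted p = 0.0992) and fell by 0.89 on the log2 scale with the length trend out (adjusted p = 0.0392). Slc36a1, a proton-coupled amino acid carrier, and Slc3a1, the heavy subunit of the cystine carrier, did not pass, with log2 fold changes of 0.57 ± 0.28 and -0.35 ± 0.16 (SE; adjusted p = 0.201 and 0.155); the sign of Slc3a1 turned in the length fit (0.20), and 26.5% of its exon bases overlap Prepl on the other strand, whose reads may be mixed in.

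Mitochondrial carriers leaned the other way. Of 16 listed, 11 were lower, 7 fell (Slc25a1, Slc25a5, Slc25a20, Slc25a33, Slc25a39, Slc25a45 and Slc25a47) and 2 rose (Slc25a32 and Slc25a51). Their median deposited log2 fold change was -0.43, which became 0.026 with the length trend out, where Slc25a20 fell and Slc25a51 rose. The median length of these 16 genes was 2751.5 bases, against 4590.0 for protein-coding genes of the table.

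Slc25a20 (ENSMUSG00000032602, chromosome 9, 108662088 to 108684641) carries acyl-carnitines into the mitochondrial matrix for fatty acid oxidation. Its normalised counts were 1988, 1783, 2253 and 1689 in Khk KO and 2536, 3249, 4620.1 and 3039.6 in WT, so the 2 genotypes did not overlap. The log2 fold change was -0.80 ± 0.19 (SE; adjusted p = 0.0213), and -0.92 with the length trend out (adjusted p = 0.0223). Slc25a51 (ENSMUSG00000045973, chromosome 4, 45395923 to 45408766), the mitochondrial NAD carrier, read 2246, 2431, 2831 and 3143 normalised counts in Khk KO against 1966, 1161, 1189 and 1466 in WT. WT replicate 1 was the highest WT library and stayed below the lowest Khk KO library. Slc25a51 rose by 0.88 ± 0.19 (SE; adjusted p = 0.019) on the log2 scale and by 0.63 with the length trend out (adjusted p = 0.0312).

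Slc25a32, which brings folate and flavin nucleotide into mitochondria, measured 879.6, 997, 1215 and 1285 normalised counts in Khk KO and 847, 557, 523 and 541 in WT. It rose by 0.83 ± 0.20 (SE; adjusted p = 0.0225) on the log2 scale and was at 0.46 with the length trend out (adjusted p = 0.112). Slc25a47, a liver-enriched carrier, had the highest level per length of the listed members in WT, with 437 ± 72.2 FPKM in Khk KO against 822 ± 375 FPKM in WT (SD, n = 4). In Khk KO both Slc38a4 and Slc27a5 had a higher mean FPKM. One WT library set that spread: the WT values were 17136, 22058, 46109.6 and 28318 normalised counts, with replicate 3 far above the rest, and the lowest WT value lay inside the Khk KO range of 12648 to 18387. Slc25a47 fell, with a log2 fold change of -0.88 ± 0.26 (SE; adjusted p = 0.041), and it was not past the threshold with the length trend out (-0.44, adjusted p = 0.409).

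Slc25a1 exports citrate, Slc25a39 imports glutathione and Slc25a5 exchanges ADP for ATP. Normalised counts of Slc25a1 were 3229 ± 155 in Khk KO and 4470.5 ± 239 in WT (SD, n = 4), those of Slc25a39 6165 ± 296 in Khk KO and 8134 ± 418 in WT (SD, n = 4) and those of Slc25a5 5658 ± 332 in Khk KO and 7452 ± 521 in WT (SD, n = 4). The genotypes did not overlap for any of the 3. They fell, with log2 fold changes of -0.47 ± 0.11, -0.40 ± 0.11 and -0.40 ± 0.11 (SE; adjusted p = 0.0227, 0.03 and 0.0347), and all 3 turned to small positive values of 0.085, 0.046 and 0.23 in the length fit.

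All 10 bicarbonate, proton, sodium, chloride and calcium carriers in the liver table were higher in Khk KO. Those that rose were Slc4a2, Slc4a4, Slc4a7, Slc9a8 and Slc12a7, and 9 of the 10 were called in the authors' deposited table. The median deposited log2 fold change of the 10 was 0.65, and -0.074 with the length trend out, where 4 of the 9 fitted members kept their sign and none passed. These genes are long, with a median of 8708.5 bases. Slc4a4, a sodium bicarbonate cotransporter, read 1589, 2277, 1731 and 1764 normalised counts in Khk KO and 1471, 718, 532 and 977 in WT. Its rise of 0.99 ± 0.27 (SE; adjusted p = 0.0328) on the log2 scale came down to 0.25 with the length trend out. Slc12a7, a potassium chloride cotransporter, was at 2416 ± 121 in Khk KO and 1389 ± 398 in WT (SD, n = 4) normalised counts, and Slc4a7, another sodium bicarbonate cotransporter, at 330.1 ± 20.04 in Khk KO and 194 ± 46.5 in WT (SD, n = 4). Their rises of 0.80 ± 0.21 and 0.77 ± 0.18 (SE; adjusted p = 0.0283 and 0.0233) turned to -0.074 and -0.22 in the length fit. The sodium potassium chloride cotransporter Slc12a2 did not pass, with a log2 fold change of 0.67 ± 0.29 (SE; adjusted p = 0.146).

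Among 9 carriers of bile acids and organic ions in the liver table, 2 rose, Slco1a4 and Slc22a23, and 2 fell, among them Slc22a18, which turned positive with the length trend out. Slco1a4, an organic anion transporter, had 1888, 2123, 1308 and 3001 normalised counts in Khk KO and 612, 588, 1006 and 1359.9 in WT. The Khk KO replicate 3 lay below WT replicate 4, and the log2 fold change was 1.22 ± 0.30 (SE; adjusted p = 0.0253), against 0.74 with the length trend out (adjusted p = 0.325). Slc22a23, an orphan of the organic ion family, rose by 1.02 ± 0.31 (SE; adjusted p = 0.0485) and was at 0.65 in the length fit.

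Slc10a5, an orphan of the bile acid carrier family, missed the threshold in liver at 0.89 ± 0.29 (SE; adjusted p = 0.0618), although its Khk KO values of 1184 to 1261 normalised counts lay above all WT values of 358 to 1151. Slc22a30, an organic anion transporter, and Slc47a1, which extrudes organic cations into bile, did not pass in the first fit, with log2 fold changes of 0.44 ± 0.14 and 0.32 ± 0.16 (SE; adjusted p = 0.0583 and 0.198). Both rose with the length trend out, by 0.74 and 0.62 (adjusted p = 0.0157 and 0.0413), while Slc22a30 turned negative with GC content out. Slc27a5, the bile acid and fatty acid ligase of the liver, was the member with the second highest FPKM, at 490.2 ± 44.3 FPKM in Khk KO against 634 ± 47.9 FPKM in WT (SD, n = 4). It fell, with a log2 fold change of -0.35 ± 0.11 (SE; adjusted p = 0.0478) and turned to 0.16 in the length fit.

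Slc20a1 (ENSMUSG00000027397, chromosome 2, 129198764 to 129211616), a sodium phosphate cotransporter, gave the clearest rise among the inorganic anion carriers of the liver. Its normalised counts were 813, 871, 768 and 719.5 in Khk KO and 482, 386, 396 and 536 in WT, and no library of one genotype lay within the other. The log2 fold change was 0.82 ± 0.16 (SE; adjusted p = 0.0174), and 0.54 with the length trend out (adjusted p = 0.0341). Exons of a transcript on the other strand cover 8.1% of its exon bases. The sulfate carriers Slc26a1 and Slc26a2 did not pass (0.48 ± 0.16 and 0.49 ± 0.23 (SE); adjusted p = 0.0675 and 0.172), and Slc26a2 turned to -0.38 in the length fit.

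Zinc and other metal carriers split in liver, with 3 of 7 higher and 4 lower. Slc39a1, a zinc importer, fell from 1271 to 2057 normalised counts in WT to 996 to 1151 in Khk KO, a log2 fold change of -0.58 ± 0.16 (SE; adjusted p = 0.0331), and was near zero with the length trend out (-0.038). Slc30a7, which loads zinc into the Golgi, rose by 0.62 ± 0.17 (SE; adjusted p = 0.0347) but turned to -0.22 in the length fit; Gm6649 overlaps 10.5% of its exon bases. The zinc importer Slc39a10 was low, at 69.1, 100.4, 69.02 and 64.5 normalised counts in Khk KO and 51.4, 8.66, 11.3 and 25.6 in WT; it rose by 1.66 ± 0.48 (SE; adjusted p = 0.0405) on the log2 scale and was not past the threshold with the length trend out (adjusted p = 0.127). The zinc exporter Slc30a6 and the zinc importer Slc39a4 had log2 fold changes of -0.60 ± 0.21 and -0.47 ± 0.20 (SE; adjusted p = 0.0728 and 0.143).

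Of 8 nucleoside and nucleotide sugar carriers listed for liver, 7 were higher. Slc35b2, which supplies sulfate donor to the Golgi, was the exception and fell, with a log2 fold change of -0.73 ± 0.20 (SE; adjusted p = 0.035). Its values were 549, 649.8, 724 and 585 normalised counts in Khk KO and 703, 1009.5, 1413 and 1024 in WT, so Khk KO replicate 3 lay above WT replicate 1. Slc35d1, which brings UDP-glucuronate into the endoplasmic reticulum, and the orphan Slc35e2 rose by 0.48 ± 0.14 and 0.72 ± 0.21 (SE; adjusted p = 0.0428 and 0.0393), and Slc35d1 turned to -0.20 in the length fit.

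Slc16a12 (ENSMUSG00000009378, chromosome 19, 34668403 to 34747289), a creatine transporter, had 2083, 2390.2, 2487 and 2648 normalised counts in Khk KO and 1658, 1416, 1648 and 2036 in WT, without overlap. It rose in both fits, by 0.51 ± 0.15 (SE; adjusted p = 0.0386) and by 0.62 with the length trend out (adjusted p = 0.0202). With GC content out Slc16a12 was not past the threshold. Its relative Slc16a7, a monocarboxylate carrier, missed the threshold at 0.46 ± 0.15 (SE; adjusted p = 0.053), and turned to -0.48 in the length fit. The thiamine carrier Slc19a2 and the riboflavin carrier Slc52a2 passed with the length trend out and not before, at 0.52 and -0.70 (adjusted p = 0.0233 and 0.0387), against 0.34 ± 0.13 and -0.42 ± 0.16 (SE) without that step. Slc17a8, a vesicular glutamate transporter, rose by 0.67 ± 0.18 (SE; adjusted p = 0.0331), and the ascorbate carrier Slc23a2 was at 0.71 ± 0.31 (SE; adjusted p = 0.145).

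**Figure D3:**
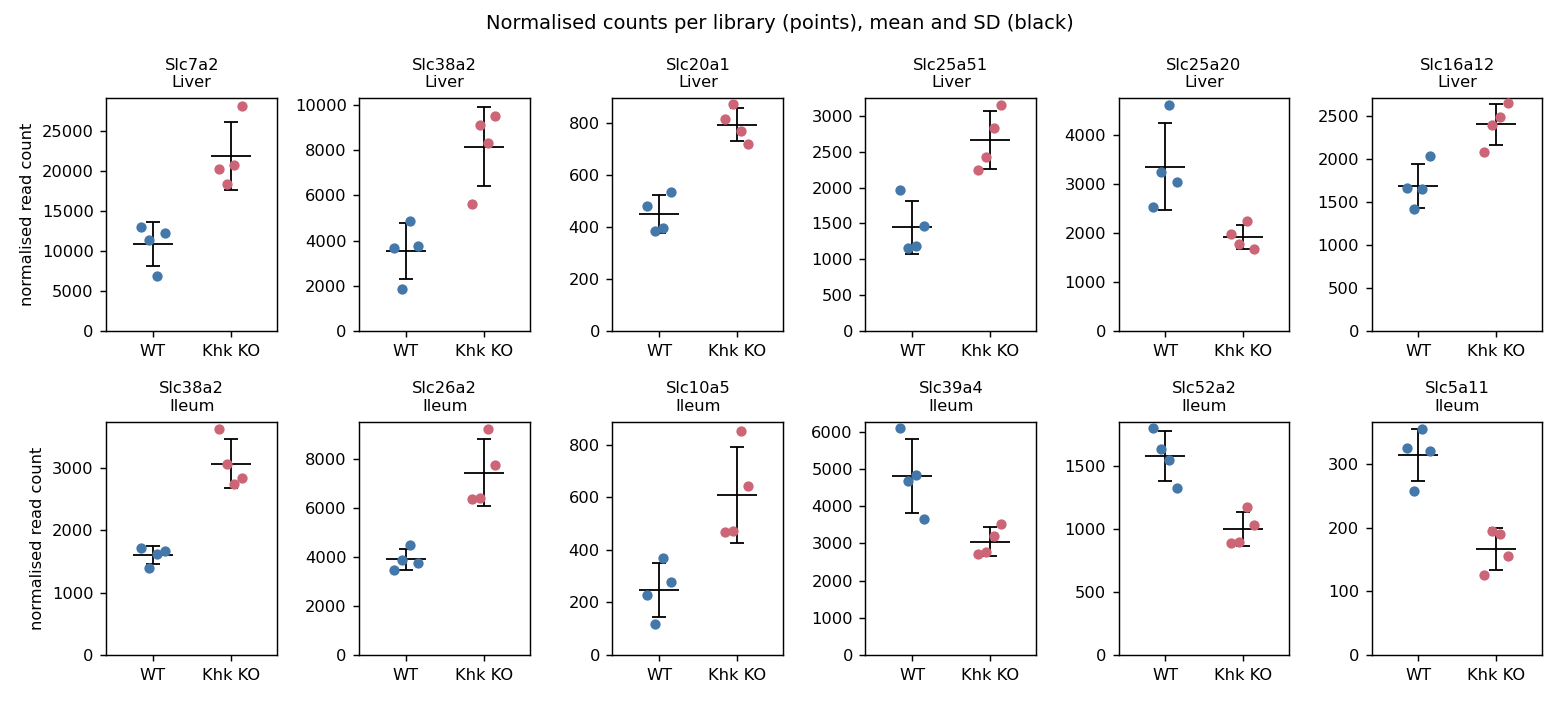
Normalised counts per library (points; blue WT, red Khk KO) with mean and SD (black) for 6 members in liver and 6 in ileum, on linear axes from 0. The genotypes do not overlap in any of the 12 panels.

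**Figure D4:**
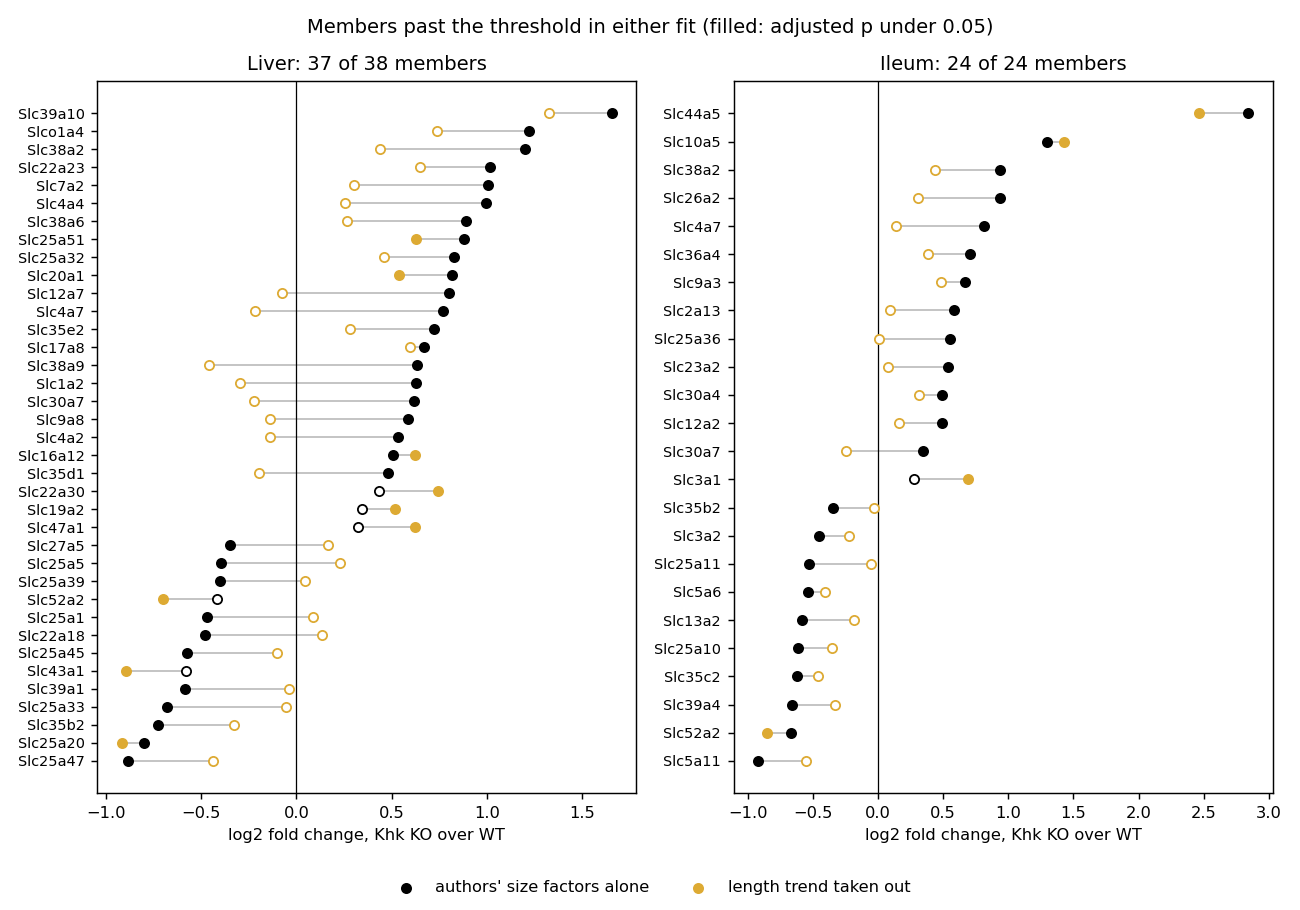
Log2 fold change of members past the threshold in at least 1 of the 2 fits, with the authors' size factors alone (black) and with the length trend taken out (yellow), in liver (37 of 38 such members drawn) and ileum (24 of 24); filled points have an adjusted p under 0.05. Most points move toward zero or across it, and few are filled in both fits.

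Ileum came second. Of its 80 members the fit took 78, and 13 rose and 10 fell, while the fit called 34% of protein-coding genes (22.5% higher and 11.5% lower); with TMM scaling 15 members rose and 19 fell, against 50.9% of protein-coding genes (24.5% higher and 26.4% lower). The authors' deposited table called 17 of the 80 members higher and 23 lower, against 52.1% of the protein-coding genes it lists (29.1% higher and 23.1% lower). Between the genotypes 48 members did not overlap, where the share over protein-coding genes was 68.7%. The median log2 fold change of fitted members was -0.033, against -0.29 for protein-coding genes. Over all 80 listed members the deposited median was 0.27, against -0.29 for protein-coding genes. Genes with small changes are mostly not listed, so -0.033 lies in the gap between lower and higher members. Members higher in Khk KO had a median length of 7143 bases and those lower one of 3105, and over 75 members log2 fold change and log2 length had a Pearson r of 0.68 (0.72 over 4164 protein-coding genes). With the length trend out 3 members rose (Slc10a5, Slc3a1 and Slc44a5) and 1 fell (Slc52a2), while 9.51% of protein-coding genes were called (3.94% higher and 5.57% lower). With GC content out 7 rose and 2 fell, and 19.2% of protein-coding genes were called (9.03% higher and 10.2% lower). The 23 calls became 2 without Khk KO replicate 4, 6 to 8 without Khk KO replicate 1, 2 or 3 or WT replicate 2 or 3, 46 without WT replicate 1 and 31 without WT replicate 4.

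Of 8 enterocyte markers 3 were in the ileum table (Alpi, Apoa4 and Fabp2), all lower and 1 called in the authors' deposited table, with sums of 29505 to 53579 normalised counts in WT and 16379 to 24722 in Khk KO. Goblet markers (2 of 4, both lower) summed to 77492 to 89615 in WT and 57891 to 77984 in Khk KO. No smooth muscle, neuron or glia marker was in the ileum table. The epithelial genes Epcam and Krt19, listed here as cholangiocyte markers, were both lower, with sums of 74704 to 125124 in WT and 57678 to 75276 in Khk KO, and erythroid markers (3 of 6, all lower) summed to 376 to 737 and 177 to 363. Guca2a (ileal enterocyte) was called lower in the authors' deposited table. Cps1, on the hepatocyte list, was called higher, with Ass1 and Cyp2e1 lower and not called. With the length trend out Alpi, Apoa4 and Fabp2 were at -0.095, -0.98 and -0.26, none past the threshold. Epcam, Krt19 and Tff3 were then at 0.15, -0.23 and 0.038, also not past it, and Muc2 was at -0.77 (adjusted p = 0.0112). The part of these cell types in the ileal values was not tested.

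Slc10a5 (ENSMUSG00000058921, chromosome 3, 10331734 to 10335656) showed the largest rise among ileal members that averaged 100 normalised counts or more. Its libraries gave 467, 471, 851 and 644 normalised counts in Khk KO and 228, 117, 368 and 276 in WT, with all Khk KO values above all WT values. The log2 fold change was 1.30 ± 0.31 (SE; adjusted p = 0.0305), and 1.43 with the length trend out (adjusted p = 0.0313). With GC content out it was 0.81 and not past the threshold (adjusted p = 0.156). Exons of Gm38303 on the same strand cover 6.83% of the exon bases of Slc10a5. In the jejunum Slc10a5 stood at 932 ± 204 in Khk KO and 522 ± 227 in WT (SD, n = 4) normalised counts, a log2 fold change of 0.83 ± 0.35 (SE) that did not pass (adjusted p = 0.26).

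The other bile acid and organic ion carriers of the ileum did not pass. Slc51a and Slc51b together form the exporter that releases bile acids to the portal blood, and the table ranked them among its most abundant members per length, at 166 ± 33.9 FPKM in Khk KO against 239 ± 64.3 FPKM in WT (SD, n = 4) and 195 ± 26.3 FPKM in Khk KO against 282 ± 91.96 FPKM in WT (SD, n = 4). Slc51a had 10108, 10176, 14520.4 and 9546 normalised counts in Khk KO and 22889.5, 14121, 14574 and 12515 in WT, and Slc51b had 2774, 2920.2, 3395 and 2417 and 6238, 4133, 3412 and 2955. For both, WT replicate 1 was the highest library and the genotypes overlapped. Their log2 fold changes were -0.53 ± 0.22 and -0.54 ± 0.22 (SE; adjusted p = 0.127 and 0.124), and Slc51b turned to 0.12 with the length trend out. Exons on the other strand cover 17.7% of the exon bases of Slc51a and 12.8% of those of Slc51b, so part of their counts may belong to Pcyt1a and Rasl12. The organic cation carrier Slc22a18 was lower at -0.64 ± 0.19 (SE; adjusted p = 0.055).

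Among ileal amino acid carriers 11 of 15 were higher, Slc38a2 and Slc36a4 rose and Slc3a2 fell. Slc38a2 had 3629, 3059.8, 2746 and 2831 normalised counts in Khk KO and 1719, 1391, 1623 and 1672 in WT, well apart in every library. It rose by 0.94 ± 0.13 (SE; adjusted p = 0.00481) on the log2 scale, by the same sign as in liver, and was at 0.44 with the length trend out (adjusted p = 0.0696). Slc36a4, a high-affinity amino acid carrier, rose by 0.71 ± 0.17 (SE; adjusted p = 0.0287), and its relative Slc36a1 was at 0.42 ± 0.18 (SE; adjusted p = 0.141). Slc3a2, the heavy subunit shared by several exchangers of large amino acids, went from 2842 to 3459 normalised counts in WT to 2155 to 2493 in Khk KO, a log2 fold change of -0.45 ± 0.11 (SE; adjusted p = 0.0331). The other heavy subunit, Slc3a1, was higher, at 0.28 ± 0.12 (SE; adjusted p = 0.159), and rose by 0.69 with the length trend out (adjusted p = 0.0341). Slc38a9 did not pass (0.51 ± 0.19 (SE); adjusted p = 0.0991).

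Ileal ion carriers were higher in 8 of 9 cases, and Slc12a2, Slc4a7 and Slc9a3 rose. Slc9a3, the brush border sodium proton exchanger, had 491, 848, 621 and 613 normalised counts in Khk KO and 309.6, 420.4, 437 and 448 in WT. Its log2 fold change of 0.67 ± 0.18 (SE; adjusted p = 0.0432) was 0.48 with the length trend out (adjusted p = 0.27). Slc12a2 read 4007 ± 166 in Khk KO and 2858 ± 325 in WT (SD, n = 4) and Slc4a7 1050.2 ± 146 in Khk KO and 597 ± 174 in WT (SD, n = 4) normalised counts. They rose by 0.49 ± 0.12 and 0.82 ± 0.21 (SE; adjusted p = 0.0318 and 0.0349); with the length trend out they were at 0.16 and 0.14 (adjusted p = 0.771 and 1), and with GC content out Slc12a2 turned to -0.072. Slc4a4 and the sodium calcium exchanger Slc8a1 had log2 fold changes of 0.41 ± 0.18 and 1.14 ± 0.44 (SE; adjusted p = 0.166 and 0.111), and Slc4a4 turned to -0.17 in the length fit.

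Slc26a2, the sulfate transporter that feeds mucin sulfation, was among the firmest ileal rises. Counts per library were 6381, 6419, 9236 and 7753 normalised in Khk KO and 3472, 3875, 4486 and 3762 in WT. The rise was 0.93 ± 0.15 (SE; adjusted p = 0.00867) on the log2 scale, and 0.31 with the length trend out (adjusted p = 0.324). The chloride bicarbonate exchanger Slc26a3 did not pass (0.53 ± 0.17 (SE); adjusted p = 0.0671).

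Of 9 metal carriers listed for ileum, 6 were higher, Slc30a4 and Slc30a7 rose and Slc39a4, the apical zinc importer of the enterocyte, fell. Slc30a7 turned negative with the length trend out. With GC content out both Slc30a4 and Slc30a7 turned negative (-0.058 and -0.14). Slc39a4 (ENSMUSG00000063354, chromosome 15, 76612383 to 76617384) had 2716, 2759, 3189.8 and 3522 normalised counts in Khk KO and 6103, 4668, 4840.5 and 3656 in WT. The highest Khk KO library lay just below the lowest WT library. The log2 fold change was -0.66 ± 0.16 (SE; adjusted p = 0.0339), and was at -0.33 with the length trend out (adjusted p = 0.208). Slc39a5, a basolateral zinc importer, and Slc39a10 missed the threshold at -0.69 ± 0.20 and 0.65 ± 0.21 (SE; adjusted p = 0.0525 and 0.0754). So did the manganese exporter Slc30a10 at 0.48 ± 0.21 (SE; adjusted p = 0.15).

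Of 4 vitamin carriers in the ileum table, Slc52a2 and Slc5a6 fell and Slc23a2 rose. Slc52a2 (ENSMUSG00000022560, chromosome 15, 76538832 to 76544608), a riboflavin carrier, had 892, 895, 1177 and 1028 normalised counts in Khk KO and 1805, 1637, 1551 and 1329 in WT, without overlap. It fell, with a log2 fold change of -0.66 ± 0.13 (SE; adjusted p = 0.0165), and by 0.85 with the length trend out (adjusted p = 0.00396), but was not past the threshold with GC content out (adjusted p = 0.168). Slc5a6, the carrier of biotin and pantothenate (Atraid overlaps 9.92% of its exon bases), fell, with a log2 fold change of -0.54 ± 0.13 (SE; adjusted p = 0.031), and Slc23a2 rose by 0.53 ± 0.13 (SE; adjusted p = 0.0328). With the length trend out Slc23a2 was at 0.074 and not past the threshold, and with GC content out at 0.54 (adjusted p = 0.024).

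Mitochondrial carriers were lower in 8 of 10 cases in the ileum, where Slc25a10 and Slc25a11 fell and Slc25a36 rose. With the length trend out the median of the 10 was -0.078, against -0.49 for the deposited log2 fold changes. Slc25a11 and Slc25a36 were then at -0.054 and 0.0051, and none of the 10 passed. With GC content out Slc25a36 turned to -0.075. The dicarboxylate carrier Slc25a10 fell from 2933 to 4980.2 normalised counts in WT to 2144 to 2812 in Khk KO, a log2 fold change of -0.61 ± 0.17 (SE; adjusted p = 0.0468). Slc25a1 and Slc25a39 did not pass (-0.57 ± 0.16 and -0.60 ± 0.22 (SE); adjusted p = 0.0514 and 0.0981), nor did Slc25a45 at -0.72 ± 0.21 (SE; adjusted p = 0.0543). WT replicate 1 was again the highest library for Slc25a39, at 4663 normalised counts against 2273 to 2454 in the other WT libraries. Slc25a5, the most abundant ileal member per length at 561 ± 44.3 FPKM in Khk KO against 733 ± 79.0 FPKM in WT (SD, n = 4), had a log2 fold change of -0.39 ± 0.14 (SE; adjusted p = 0.1), which turned to 0.11 in the length fit.

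Of 8 sugar carriers listed for ileum, 1 rose and 1 fell, and of 5 lipid carriers 1 rose. Slc5a11, a sodium-coupled inositol carrier, had 125, 195, 190.1 and 155 normalised counts in Khk KO and 324, 257, 354 and 319.9 in WT. It fell, with a log2 fold change of -0.92 ± 0.18 (SE; adjusted p = 0.0148), and was at -0.55 with the length trend out (adjusted p = 0.189). The other inositol carrier, Slc5a3, was higher at 0.73 ± 0.24 (SE; adjusted p = 0.0715), and overlaps Mrps6 on the same strand over 1.46% of its exon bases. The intracellular hexose carrier Slc2a8 was at -0.63 ± 0.20 (SE; adjusted p = 0.0684). Slc13a2, the brush border carrier of succinate and citrate, fell from 5149 to 7263 normalised counts in WT to 3622 to 4722 in Khk KO, a log2 fold change of -0.58 ± 0.14 (SE; adjusted p = 0.0321); an antisense gene overlaps 26.2% of its exon bases. Slc13a2 was at -0.18 with the length trend out and -0.23 with GC content out, neither past the threshold. The fatty acid carriers Slc27a4 and Slc27a2 missed the threshold at -0.62 ± 0.21 and -0.50 ± 0.15 (SE; adjusted p = 0.0782 and 0.0633). Slc44a5, a choline transporter-like protein, was near the detection limit with 19.9, 12.6, 16.5 and 28.9 normalised counts in Khk KO and 2.49, 0.898, 4.15 and 3.11 in WT. It rose by 2.84 ± 0.54 (SE; adjusted p = 0.0138) and by 2.46 with the length trend out (adjusted p = 0.0377); the authors gave it no adjusted p. In Golgi transport, Slc35b2 and the GDP-fucose carrier Slc35c2 fell, with log2 fold changes of -0.35 ± 0.10 and -0.62 ± 0.15 (SE; adjusted p = 0.0478 and 0.0338), and Slc35b2 turned to 0.095 with GC content out.

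In the jejunum no member passed the edgeR test, where the fit called 0.055% of protein-coding genes. At an unadjusted p under 0.05 the refit held 30 of 32 fitted members. Listing already required such a p in the authors' test of the same libraries, so that count is no separate support. DESeq2 called 8 of 33, against 15.2% of protein-coding genes. Between the genotypes 17 members did not overlap, where the share over protein-coding genes was 58.1%. The authors' deposited table called 1 of the 33, Slc37a2, against 3.11% of the protein-coding genes it lists. Slc37a2, a sugar phosphate antiporter of the endoplasmic reticulum that macrophages also express, had 804, 738, 514 and 777 normalised counts in Khk KO and 207, 324, 471 and 208 in WT. Khk KO replicate 3 and WT replicate 3 were close to each other, and the genotypes did not overlap. Its log2 fold change was 1.23 ± 0.28 (SE; adjusted p = 0.252 in edgeR) and 1.23 with an adjusted p of 0.008 in the authors' deposited table. None of the 5 macrophage markers was in the jejunum table. Smooth muscle markers (4 of 7, all lower and none called in the authors' deposited table) summed to 9428 to 22433 in WT and 7709 to 11341 in Khk KO there. Tff3, the 1 goblet cell marker of 4 in the table, had 11482 to 16374 normalised counts in WT and 7222 to 10232 in Khk KO, without overlap. Erythroid markers (4 of 6, all lower) summed to 532 to 1543 in WT and 389 to 719 in Khk KO, and adipocyte markers (3 of 4, all lower) to 27.9 to 639.8 and 25.6 to 92.5. Of 8 enterocyte markers 3 were in the jejunum table, Alpi and Sis higher and Apoa4 lower (deposited log2 fold change 0.52, 0.39 and -0.54). Their sums were 155320 to 249884 in WT and 170505 to 207149 in Khk KO. None of these markers was called in the authors' deposited table, and their part in the jejunal values was not tested.

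Further jejunal members are given as values. Slc2a7, a hexose carrier of the small intestine, had 996, 1433, 1302 and 1499.6 normalised counts in Khk KO and 834, 898, 808 and 924 in WT, and a log2 fold change of 0.59 ± 0.14 (SE; adjusted p = 0.252). The phosphate carrier Slc34a2 and the monocarboxylate carrier Slc5a8 had log2 fold changes of -2.82 ± 0.83 and -1.74 ± 0.58 (SE; adjusted p = 0.252 and 0.252). WT replicates 1 and 4 were the highest for both and the genotypes overlapped, with WT counts of 764, 154, 44.6 and 249.6 for Slc34a2 and 861, 164, 141 and 453 for Slc5a8. Slc25a20 was lower, at 915, 913, 917 and 1000.0 normalised counts in Khk KO and 1466, 1186, 1514 and 1186 in WT, with a log2 fold change of -0.52 ± 0.12 (SE; adjusted p = 0.252).

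In the duodenum no member passed either, with 0.0831% of protein-coding genes called by the fit. An unadjusted p under 0.05 was met by 14 of the 24 fitted members, all of them listed for such a p in the authors' test. DESeq2 called 2 of 25 (Slc2a7 and Slc6a4), against 1.57% of protein-coding genes. Between the genotypes 10 members did not overlap, where the share over protein-coding genes was 46.9%. The authors' deposited table called 0 of the 25, against 1.49% of the protein-coding genes it lists. Erythroid markers (4 of 6, all lower) summed to 821 to 1779.9 normalised counts in WT and 315 to 985 in Khk KO there. Sis (enterocyte), Clca1 (goblet) and Mzb1 (plasma cell), each the only listed marker of its type, were higher, at deposited log2 fold changes of 0.29, 0.39 and 0.46. Of the macrophage markers Adgre1 was higher and Marco lower, and the neuron marker Uchl1 was lower. None of these markers was called in the authors' deposited table, and their part in the duodenal values was not tested. Slc2a7 had 1243, 1830.1, 1515 and 1431 normalised counts in Khk KO and 1135, 1048, 961 and 1108 in WT, without overlap, and a log2 fold change of 0.50 ± 0.13 (SE; adjusted p = 0.838 in edgeR). DESeq2, which set its own size factors, put Slc2a7 at 0.67 (adjusted p = 0.00305). Slc6a19, the main neutral amino acid carrier of the brush border, was the most abundant duodenal member per length at 174 ± 11.7 FPKM in Khk KO against 147 ± 17.98 FPKM in WT (SD, n = 4). It and Slc7a9, the light subunit of the cystine carrier, had log2 fold changes of 0.25 ± 0.13 and 0.33 ± 0.13 (SE; adjusted p = 1 and 0.838). Slc9a3 and Slc36a1 were also on the higher side, at 0.41 ± 0.17 and 0.72 ± 0.23 (SE; adjusted p = 0.838 and 0.838).

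Across organs, 112 members were listed for 1 organ, 33 for 2, 14 for 3 and only Slc35b2 for all 4. Of the 48 listed for at least 2 organs, 24 were higher in Khk KO in each of them, 19 lower and 5 mixed. Liver and ileum shared 33 members (38.4% of the liver members and 41.3% of the ileal ones), 31 of them with the same sign, where 98.5% of the 2647 shared protein-coding genes had the same sign. The tables hold selected genes, and organs of 1 mouse may be among the libraries compared, so same signs are a description.

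**Figure D5:**
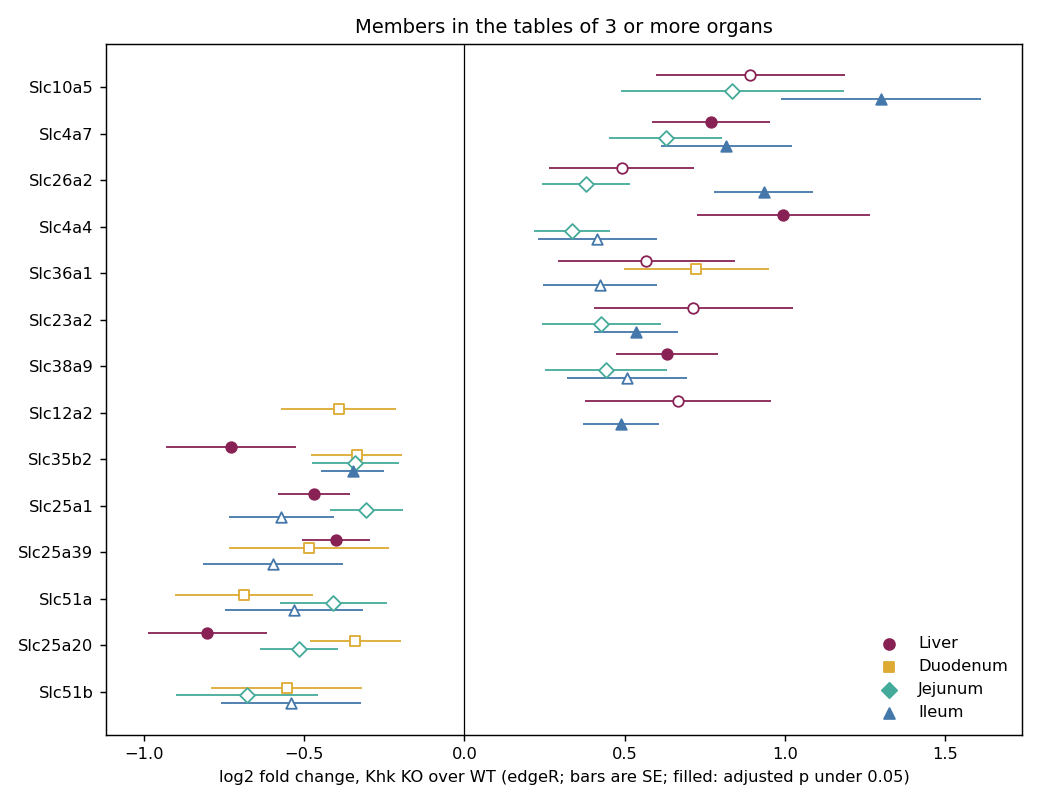
Log2 fold change (edgeR, bars are SE) of 14 of the 15 members found in at least 3 organ tables; filled symbols have an adjusted p under 0.05. Slc12a2 is the only one of the 14 with both signs, and no duodenal or jejunal symbol is filled.

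Slc35b2 was lower in all 4 organs, at -0.73 (liver), -0.35 (ileum), -0.34 (jejunum) and then -0.34 (duodenum) on the log2 scale (adjusted p = 0.035, 0.0478, 0.26 and 0.838), so that it fell in liver and ileum. With the length trend out Slc35b2 was at -0.034 in ileum and -0.18 in duodenum. With GC content out it was at 0.095 and -0.067 there, none of these past the threshold. Slc51a was lower in the duodenum, jejunum and ileum. In the duodenum it had 3877, 6636, 5330.1 and 5072 normalised counts in Khk KO and 11510.3, 7169, 8176 and 6827 in WT, and in the jejunum 3227, 3615, 3045 and 3543 and 5969, 3749, 4384 and 3735. WT replicate 1 was the highest library in each segment. The log2 fold changes of Slc51a were -0.69 ± 0.21 and -0.41 ± 0.17 (SE; adjusted p = 0.838 and 0.26), and those of Slc51b -0.55 ± 0.24 and -0.68 ± 0.22 (SE; adjusted p = 0.838 and 0.252). With the length trend out Slc51a was at -0.54 and -0.10 and Slc51b at -0.13 and -0.20 in duodenum and jejunum.

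Slc25a20 fell in liver and was lower in duodenum and jejunum at -0.34 and -0.52 (adjusted p = 0.838 and 0.252), with the same sign in the length fit (-0.42 and -0.52). Slc25a1 in the jejunum and Slc25a39 in the duodenum were also lower, at -0.31 ± 0.11 and -0.48 ± 0.25 (SE; adjusted p = 0.258 and 1), and Slc25a1 turned to 0.12 in the length fit. On the higher side in the jejunum were Slc4a7, Slc4a4, Slc23a2, Slc26a2 and Slc38a9, at 0.63, 0.34, 0.43, 0.38 and 0.44 on the log2 scale, none past the threshold (adjusted p = 0.252, 0.252, 0.268, 0.256 and 0.267). Slc4a4, Slc26a2 and Slc38a9 turned negative there with the length trend out (-0.14, -0.13 and -0.12).

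The 5 members with mixed signs were Slc1a2, Slc3a1, Slc12a2, Slc13a2 and Slc16a5. A genotype by organ interaction was tested for each pair of organs over all genes in both tables, 81 member tests in 6 pairs; a gene enters only if it differed in both organs, so opposite signs had to give a difference. Over all such genes, 0.529% passed between liver and ileum, 2.16% between liver and duodenum, 0.543% between liver and jejunum, 0.628% between duodenum and ileum, and 0% in both remaining pairs. Slc1a2 was the member that passed, with an ileum minus liver difference of -2.92 ± 0.66 (SE; adjusted p = 0.0487). Ileal counts of Slc1a2 were low, at 2.30, 10.8, 1.18 and 6.74 normalised in Khk KO and 32.3, 13.5, 5.18 and 57.97 in WT. The difference did not pass with TMM scaling or with the length trend out (adjusted p = 0.0616 and 0.0597).

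Slc13a2 was higher in the duodenum (0.28 ± 0.13 (SE); adjusted p = 0.855) and fell in the ileum, and its ileum minus duodenum difference was -0.86 ± 0.20 (SE; adjusted p = 0.0735). That difference passed with TMM scaling (adjusted p = 0.034) and did not with the length trend out (-0.73, adjusted p = 0.257). Slc12a2 was lower in the duodenum (-0.39 ± 0.18 (SE); adjusted p = 0.838) and rose in the ileum, a difference of 0.88 ± 0.22 (SE; adjusted p = 0.079). For Slc16a5, a monocarboxylate carrier family member, the log2 fold change was 0.29 ± 0.12 (SE; adjusted p = 0.838) in duodenum and -0.50 ± 0.22 (SE; adjusted p = 0.159) in liver, a duodenum minus liver difference of 0.79 ± 0.27 (SE; adjusted p = 0.131). The ileum minus liver difference of Slc3a1 was 0.63 ± 0.20 (SE; adjusted p = 0.232).

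Of 15 partners that carriers need for folding, energy or anchoring, 7 were in the liver table and 5 in the ileum table. In the edgeR fit Bsg and Mpc2 fell in liver, and the partners in the other tables did not pass. Bsg, the chaperone of monocarboxylate carriers, averaged 4754 ± 176 in Khk KO and 7706 ± 1689 in WT (SD, n = 4) normalised counts in liver. The log2 fold change of -0.70 (adjusted p = 0.0192) was -0.064 with the length trend out. Mpc2, a subunit of the mitochondrial pyruvate carrier, averaged 2212 ± 194 in Khk KO and 3126 ± 454 in WT (SD, n = 4) normalised counts in liver, a log2 fold change of -0.50 (adjusted p = 0.0353), and -1.12 with the length trend out (adjusted p = 0.0152). The other subunit, Mpc1, did not pass in liver at -0.45 (adjusted p = 0.0976). In the ileum Mpc2 was at -0.56 (adjusted p = 0.0967), and fell with the length trend out (-0.98, adjusted p = 0.0283). Atp1b1, a subunit of the sodium pump, passed in liver with the length trend out (0.80, adjusted p = 0.0151) and not before (0.40, adjusted p = 0.153).

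Among 23 transcription regulators of carrier genes, 7 were in the liver table, 7 in the ileum, 6 in the duodenum and 3 in the jejunum. Hnf4g, a nuclear receptor of enterocytes, averaged 3447 ± 341 in Khk KO and 1175 ± 254 in WT (SD, n = 4) normalised counts in ileum. It rose by 1.55 on the log2 scale (adjusted p = 0.00254) and by 1.95 with the length trend out (adjusted p = 5.6e-04). In the jejunum and duodenum it was higher without passing, at 0.66 and 0.80 (adjusted p = 0.252 and 0.861). In liver, Ppargc1a, a coactivator of mitochondrial genes, rose by 1.04 (adjusted p = 0.0238) and the forkhead factor Foxa2 fell (-0.65, adjusted p = 0.0449), neither past the threshold with the length trend out (adjusted p = 0.291 and 1). Ppara, the receptor that drives fatty acid oxidation genes, was at 0.52 in liver, 0.59 in ileum and 1.21 in jejunum (adjusted p = 0.104, 0.169 and 0.252 in edgeR). The authors' deposited table called Ppara higher in jejunum (adjusted p = 0.0202) and not in liver or ileum.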

How the data were processed

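RNA sequencing libraries of polyA RNA from 32 mouse samples (8 groups of 4) were used as 4 deposited organ tables. Reads were aligned with HISAT2 2.0.5 to GRCm38/mm10, per the submitters' processing notes; the counting tool, the annotation, the test and the use of strand were not given in the sources used here. Each table holds, per library, the authors' deposited read counts, a deposited normalised signal (counts over 1 size factor per library) and deposited FPKM, with the authors' deposited log2 fold change, p-value and adjusted p-value, for genes with p under 0.05 only. The authors adjusted over 18225 liver genes, 16034 ileal, 15615 duodenal and 9881 jejunal genes, numbers recovered from their deposited p-values; an adjusted value of 1 marked genes they did not adjust.

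Counts were refitted per organ with edgeR 4.0.16 (quasi-likelihood F test, R 4.3.3), the authors' size factors, filterByExpr and Benjamini-Hochberg adjustment over those gene numbers. SE is the log2 fold change over the square root of F. Because the tables hold only selected genes, the spread was estimated on those genes. Alternatives were TMM scaling, no filter, DESeq2 1.42.0, a length or GC trend per library (lowess span 0.5) as an offset, a replicate block, and leaving out each library. DESeq2 set its own size factors from the listed genes, so its log2 fold changes differ from those of the first fit. The script was tested on simulated data. Members and gene lists were chosen with earlier results of these data known. Genes were named by class, called in the authors' deposited table, averaging 100 normalised counts or more and the largest changes (up to 3 per class), beside a set of anchor genes and members of 3 or more tables; others, such as those past the threshold only with the length trend out, were chosen after their values were seen. Substrate classes were assigned by hand from symbols. Some members are counted but not reported here by name.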

Additional observations from a re-analysis of the deposited data

Results flagged for a closer look

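In 14 of 222 groups of 4 libraries, 1 library stood apart from the other 3 by Dixon's criterion, which chance alone meets in about 1 group in 20. In liver, Slc43a1 had 132 normalised counts in Khk KO replicate 3 against 76.3 to 83.6 in the others. Slc25a32 had 847 in WT replicate 1 against 523 to 557, and Slc12a2 had 278 in the same library against 109.6 to 126. Slc25a1 had 2997 in Khk KO replicate 1 against 3289 to 3320, Slc39a10 had 100.4 in Khk KO replicate 2 against 64.5 to 69.1, and Slc35e2 had 1931 in Khk KO replicate 4 against 1362 to 1446.

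In the ileum, WT replicate 1 stood apart for Slc38a9 (144 against 246 to 266), Slc8a1 (288 against 64.7 to 73.6) and Slc25a39 (4663 against 2273 to 2454). Slc12a2 had 2375 in WT replicate 2 against 2967 to 3077. Khk KO replicate 3 stood apart for Slc51a (14520.4 against 9546 to 10176) and Slc25a1 (2505 against 2017 to 2068). In the jejunum, Slc23a2 had 802 in WT replicate 4 against 1085 to 1111, and Slc25a20 had 1000.0 in Khk KO replicate 4 against 913 to 917.

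The ileum minus liver difference in the genotype effect on Slc1a2 was -2.92 on the log2 scale (interaction test in edgeR, adjusted p = 0.0487). Genes enter that test only if listed for both organs, so opposite signs had to give a difference. It did not pass with TMM scaling or with the length trend out (adjusted p = 0.0616 and 0.0597), and ileal counts were low, at 1.18 to 10.8 normalised counts in Khk KO and 5.18 to 57.97 in WT.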

How the results depend on the processing

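The number of members past the threshold moved with the processing, and the cause was not tested. In liver the 33 calls became 51 with DESeq2, 9 with the length trend out, 21 with GC content out and 7 with the replicate block and the length trend together, and leaving out 1 library gave 0 to 63. In ileum the 23 calls became 34 with TMM, 57 with DESeq2, 4 with the length trend out and 9 with GC content out, and 2 to 46 without 1 library. The jejunum had 8 calls with DESeq2 and 1 with block and length trend, the duodenum 2 with DESeq2. The liver median became 0.071 with the length trend out, 0.21 with GC out and 0.073 with block and length trend; the ileal one 0.27 without the filter and 0.30 with DESeq2; the jejunal one 0.051 and 0.048 with the length trend out, without and with the block; the duodenal one 0.40 with TMM, 0.44 with DESeq2 and 0.41 with GC out. Without 1 library the medians were 0.38 to 0.51 in liver, -0.038 to 0.28 in ileum, 0.24 to 0.36 in jejunum and 0.20 to 0.31 in duodenum. Interaction calls between liver and ileum went from 1 to 0 with TMM and with the length trend out, and between duodenum and ileum from 0 to 1 with TMM.

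Same-numbered libraries were not paired by the labels, and deviations of the same number correlated at -0.292 to 0.315 over 16 pairs, 4 of which matched their own number best. With the replicate block, liver had 24 calls (19 rose, 5 fell) and ileum 4, and none of 111 named log2 fold changes reversed.

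Of 111 named values, 3 reversed with GC out: Slc12a2 in ileum to -0.072, Slc22a30 in liver to -0.20 and Slc35b2 in ileum to 0.095. The 111 leave out some members named above. Among those, Slc25a36, Slc30a4 and Slc30a7 in ileum also turned negative with GC out (-0.075, -0.058 and -0.14). With the length trend out, and with the block and length trend together, 21 of the 111 reversed. In liver the pairs of values were -0.074 and -0.054 for Slc12a7, -0.48 and -0.40 for Slc16a7, -0.29 and -0.28 for Slc1a2, 0.085 and 0.090 for Slc25a1, 0.046 and 0.055 for Slc25a39, 0.23 and 0.24 for Slc25a5, -0.38 and -0.38 for Slc26a2, 0.16 and 0.17 for Slc27a5, -0.22 and -0.21 for Slc30a7, -0.20 and -0.20 for Slc35d1, -0.46 and -0.42 for Slc38a9, 0.20 and 0.20 for Slc3a1, and -0.22 and -0.21 for Slc4a7. In ileum they were 0.11 and 0.12 for Slc25a5, -0.19 and -0.16 for Slc38a9, -0.17 and -0.13 for Slc4a4, and 0.12 and 0.11 for Slc51b. In jejunum they were 0.12 and 0.13 for Slc25a1, -0.13 and -0.12 for Slc26a2, -0.12 and -0.097 for Slc38a9, and -0.14 and -0.13 for Slc4a4. None of the 111 values reversed without 1 library, with TMM, without the filter or with DESeq2. Outside the 111, Slc22a18 in liver and Slc30a7 in ileum also changed sign with the length trend out. Tables of selected genes limit every comparison here, since unchanged carriers were not analysed.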
